A study of Saccharomyces cerevisiae with 12 samples.

Results

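The comparison described here set a strain of baker's yeast (Saccharomyces cerevisiae) labelled TAL against its control strain while both were exposed to furfural. Its members were chosen by their labels as the 2 runs of the TAL strain and the 2 runs of the control strain at 70 mM furfural, 4 of the 12 arrays of the study. The study used strains built on the xylose-fermenting yeast MT8-1X and measured total RNA on single-colour Agilent arrays after 6 h with 0 or 70 mM furfural. The control strain was labelled MT8-1X/404-405 and the TAL strain MT8-1X/TAL-405, and a further strain, TAL-ADH, entered the estimate of the spread, the filter on dim genes and the mean level of each gene. TAL was taken as the transaldolase gene TAL1 and ADH as the alcohol dehydrogenase gene ADH1 from what is known of the study, since the labels do not spell them out. The labels do not say how the introduced gene was carried or driven, nor whether runs 1 and 2 came from independent cultures. The p-values below therefore reflect the spread between runs, and that spread may be technical.

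Furfural is an aldehyde set free when plant biomass is broken down with acid and heat. Yeast detoxifies it mainly by reducing it to furfuryl alcohol with NADH or NADPH, and fermentation slows until that is done. Transaldolase is an enzyme of the non-oxidative pentose phosphate pathway, which returns the carbon of xylose to glycolysis and lies beside the oxidative branch that makes NADPH. The question of the comparison was which transcripts differ between a strain that carries the added transaldolase gene and its control when furfural is present.

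The 4 arrays lay on the same slide, so the strain difference was measured within a slide. Between 94.9% and 97.2% of their gene spots were well above background, and the 75th percentile of the probe intensities was 3194 and 2799 in the control strain and 5896 and 4832 in the TAL strain. Levels are given as log2 intensity relative to that percentile of the same array, so that 0 is a well-expressed transcript, and differences are TAL minus control in log2 units. The runs of a group correlated with r = 0.956 in the control strain and 0.960 in the TAL strain across 6083 genes. Of the other groups, 2 resembled the control strain at the other dose more closely than at their own. The group labelled TAL at 0 mM correlated more closely with TAL at 70 mM (r = 0.969) and control at 70 mM (r = 0.940) than with control at 0 mM (r = 0.872). The group labelled TAL-ADH at 70 mM correlated with control at 0 mM (r = 0.992), on the same slide, more closely than with control at 70 mM (r = 0.861). It also correlated with TAL-ADH at 0 mM, on another slide, with r = 0.987. The reason was not tested, and the labels were kept. These r values are across genes, which are not independent replicates. A fit without TAL at 0 mM and TAL-ADH at 70 mM is given beside the count below.

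TAL1 itself was read first, as the check of the labels. Its level was 0.54 and 0.89 on the control arrays under furfural and 2.77 and 2.87 on the TAL arrays. Both TAL arrays lay above both control arrays, by 2.11 ± 0.34 (SE, n = 2 against 2), which is 4.32-fold, and the test across all genes gave an adjusted p of 0.0628 (limma, Benjamini-Hochberg), so TAL1 was not called at 0.05. It was called when the arrays were quantile-normalized, with a difference of 2.36 and an adjusted p of 0.0224. TAL1 was also called with the run number as a block (adjusted p 0.00551 in limma over 12 arrays), a pairing that the labels do not state. Without furfural the TAL1 level was 2.34 and 2.81 on the control arrays and 3.44 and 3.98 on the TAL arrays. The TAL1 levels of the TAL strain under furfural thus overlapped those of the control strain without furfural, which was measured on another slide, as was the TAL strain without furfural. The probe reads the native and the added gene together wherever both carry its target.

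Of 6083 genes tested, 5 differed between the strains under furfural at an adjusted p under 0.05, which is 0.0822% of the genes. The genes higher in the TAL strain were YBR292C and EFM6, 2 genes or 0.0329%, and the genes lower were URA3, CIT3 and GPP1, 3 genes or 0.0493%. At an unadjusted p under 0.05 there were 984 genes, 638 higher and 346 lower. At an adjusted p under 0.1, a threshold added after the data were seen, there were 71, of which 45 were higher. Without the groups TAL at 0 mM and TAL-ADH at 70 mM, only URA3 was called (adjusted p 0.0108 in limma), and the 4 arrays fitted alone gave 0 calls with 543 genes at an unadjusted p under 0.05. Quantile normalization gave 12 calls, 8 higher and 4 lower. Treating runs that share a number as pairs gave 357 calls over the 12 arrays, 213 higher and 144 lower. The same pairing gave 793 calls in the 4 arrays alone. The labels do not state this pairing, but run 1 deviations of the 2 groups compared correlated with r = 0.757. The called genes counted in the lists below are from the unpaired fit, so a count of 0 there depends on that choice. With 2 arrays a group, an exact permutation test of a single gene could not go below p = 0.333.

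URA3, which encodes orotidine-5′-phosphate decarboxylase of pyrimidine synthesis and is a common selectable marker of yeast strains, was lower by the widest margin. Its level was 4.72 and 5.23 on the control arrays and 0.64 and 0.03 on the TAL arrays, a difference of -4.64 ± 0.36 (SE), or 24.9-fold lower, with an adjusted p of 0.00254 in limma. The arrays of the strains were separated by more than 4 log2 units in each run, the widest gap of any gene named here. Without furfural URA3 was 4.46 and 4.86 on the control arrays and 3.27 and 4.11 on the TAL arrays. On the TAL-ADH arrays labelled 70 mM it was 1.18 and 0.99. The low values of URA3 were thus on the arrays of the 2 TAL-carrying strains labelled 70 mM. Without run 2 of the control strain the difference was -4.38 with an adjusted p of 0.0550, and in the 4 arrays alone the adjusted p was 0.152.

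Of the 6 measured marker and auxotrophy genes, URA3 was the only one called, 4 stood lower without overlap (66.7%, against 18.3% of all genes) and 0 higher, with a median difference of -0.60. All 6 differences were negative, and those besides URA3 ran from -0.77 for LYS2 to -0.28 for ADE2, genes of lysine and adenine synthesis. MET17, of sulfide incorporation, was 4.58 and 4.83 against 4.06 and 4.48, and under quantile normalization it stood higher. With that normalization 2 of the 6 were still lower, where 18.2% of all genes stood lower and 23% higher. Of the remaining members, TRP1, for an enzyme of tryptophan synthesis, was 3.06 and 4.36 against 2.42 and 3.54, and LEU2, for an enzyme of leucine synthesis, was 0.95 and -0.06 against 0.46 and -0.49, control before TAL. The strains overlapped for both, and HIS3, of histidine synthesis, was too dim to be kept. The difference of LEU2 was -0.46 (adjusted p 0.697), and it changed sign, to 0.04 and 0.01, without run 1 of the control strain or run 2 of the TAL strain. XKS1, the xylulokinase of xylose use, was 3.26 and 3.55 in the control strain and 2.57 and 2.41 in the TAL strain. The XKS1 arrays did not overlap, with a difference of -0.91 ± 0.23 and an adjusted p of 0.139 in limma. ADH1, the main fermentative alcohol dehydrogenase, was 5.65 and 5.12 against 4.70 and 4.37, and its difference of -0.84 ± 0.42 (adjusted p 0.354) became 0.04 under quantile normalization.

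CIT3, a mitochondrial citrate and methylcitrate synthase, was lower in the TAL strain by 2.69 ± 0.33 log2 units, or 6.45-fold, with an adjusted p of 0.0249 in limma. Its level was 1.34 and 2.21 on the control arrays and -1.15 and -0.69 on the TAL arrays. GPP1, a glycerol-3-phosphate phosphatase that makes glycerol, was 3.23 and 3.91 in the control strain and 1.40 and 0.45 in the TAL strain. GPP1 was lower by 2.65 ± 0.36, or 6.28-fold, with an adjusted p of 0.0496, just under the threshold. Its close paralog GPP2, whose transcript can share signal with the GPP1 probe, was 1.94 and 1.23 against 1.43 and -0.68. The GPP2 arrays overlapped, with a difference of -1.21 and an adjusted p of 0.427.

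EFM6, a lysine methyltransferase that modifies translation elongation factor 1A, was higher in the TAL strain by 1.84 ± 0.21, or 3.57-fold, with an adjusted p of 0.0235 in limma. It was -4.21 and -4.54 on the control arrays and -2.73 and -2.35 on the TAL arrays. YBR292C, an open reading frame without a gene name, was -6.08 and -6.20 against -4.06 and -3.78, higher in the TAL strain by 2.22 ± 0.24 or 4.66-fold (adjusted p 0.0215). Both are transcripts of low level on these arrays, and both were detected on all 4. The per-array plot shows that EFM6 and YBR292C also stood higher on the TAL than on the control arrays without furfural, where the control arrays were not well above background for YBR292C, while CIT3 did not stand lower there.

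**Figure D1:**
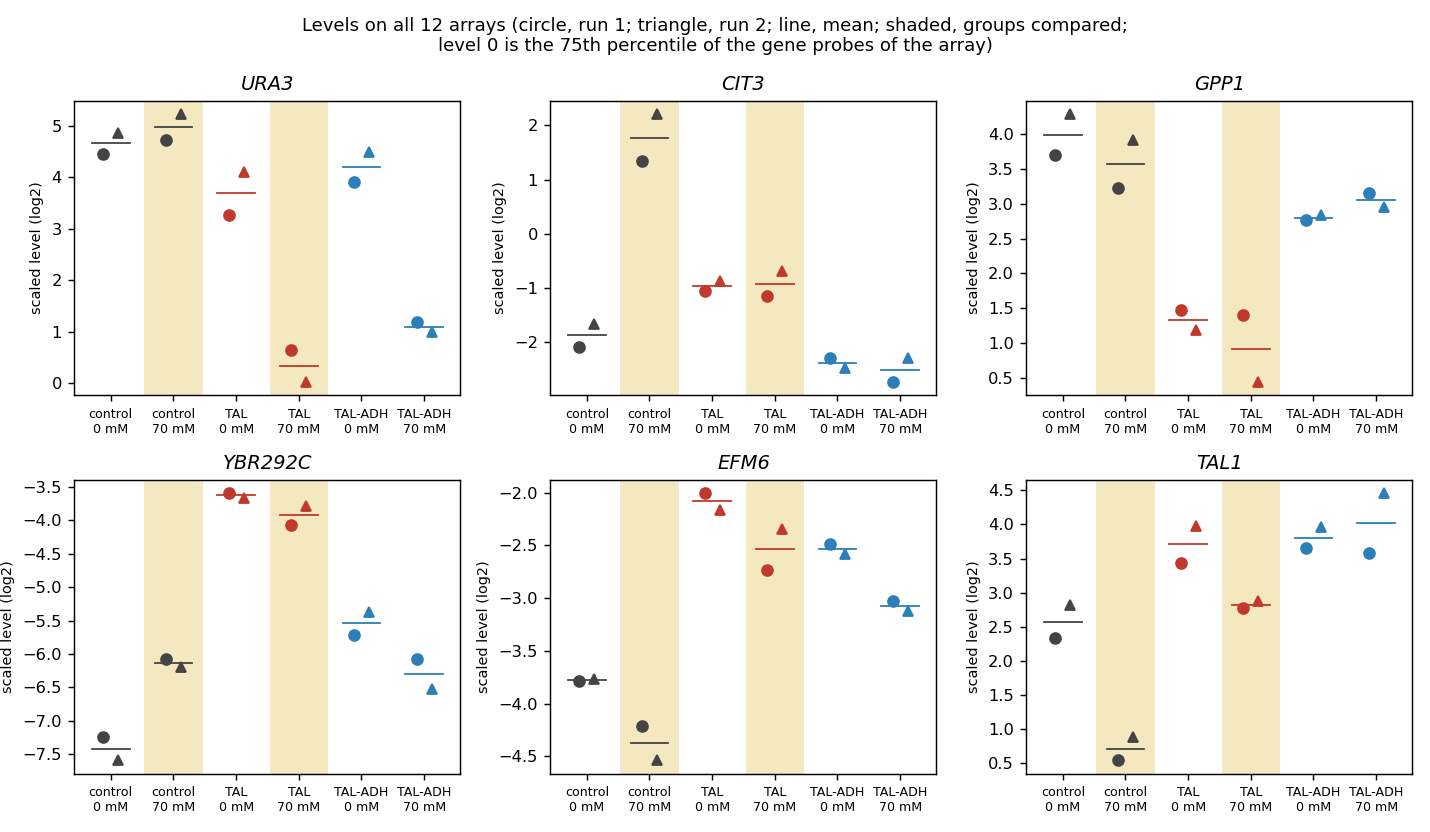
Scaled levels (log2 intensity, with 0 at the 75th percentile of each array) of the 5 called genes and TAL1 on each of the 12 arrays, by strain and furfural dose, with circles for run 1, triangles for run 2 and lines for the mean of 2 arrays. In the shaded columns the 4 arrays compared do not overlap for any of the 6 genes, and URA3 is low on the TAL and TAL-ADH arrays at 70 mM.

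The strain difference was similar in the runs for most genes. Across genes, the difference in run 1 and that in run 2 correlated with r = 0.712, and 77.6% of genes had the same sign in both. The spread of the differences was larger in run 2 (SD 0.724 across genes) than in run 1 (SD 0.464). Both TAL arrays lay above both control arrays for 1544 genes (25.4%) and below for 1116 (18.3%). Among these, 180 genes (2.96%) were higher and 159 (2.61%) lower by at least 1 log2 unit. The genes described from here on that were not called were picked for their size or their group after their values were seen, and their differences are a description.

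**Figure D2:**
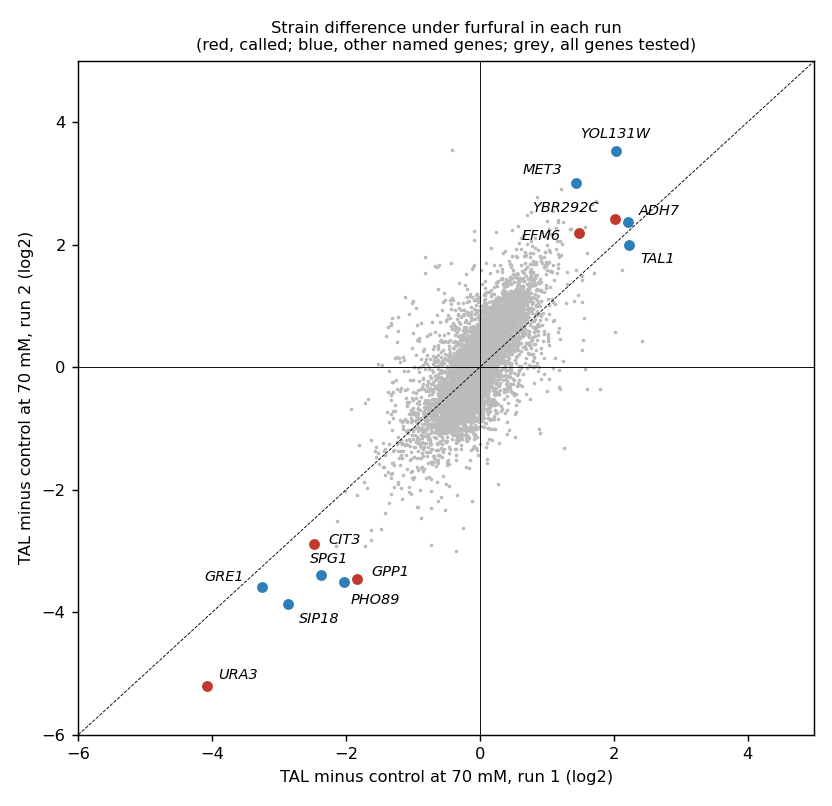
Strain difference (TAL minus control at 70 mM furfural, log2) in run 2 against run 1 for the 6083 genes tested (grey), with the called genes in red and 8 others in blue. URA3 lies at the lower left, far from every other gene, and of these labelled genes all but TAL1 lie farther from 0 in run 2 than in run 1.

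Among non-overlapping genes, the largest excess in the TAL strain after the called genes was in genes of unrelated roles. The unnamed reading frame YOL131W was -5.51 and -6.22 on the control arrays and -3.47 and -2.69 on the TAL arrays (difference 2.79). ADH7, an NADPH-dependent alcohol dehydrogenase that can reduce furfural, was -2.64 and -2.18 against -0.42 and 0.19. The ADH7 difference was 2.29 ± 0.34 with an adjusted p of 0.0628 in limma, and no array of one strain reached the other. YEF1, a kinase that makes NADP(H) from NAD(H), was -2.49 and -2.15 against -0.76 and 0.57. RAD59 and SHU2, which act in homologous recombination, differed by 1.82 and 1.85, and IPL1, the Aurora kinase of chromosome segregation, by 1.81. ECM29, a proteasome-associated protein, differed by 1.81 as well.

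The largest deficits in the TAL strain after URA3 were also in genes of several roles. GRE1 and SIP18, which encode hydrophilins made under desiccation and osmotic stress, differed by -3.42 and -3.37. GRE1 was 2.60 and 4.86 on the control arrays and -0.66 and 1.28 on the TAL arrays, and SIP18 was -0.02 and 1.96 against -2.88 and -1.91. The strains did not overlap for either gene, and the adjusted p was 0.198 for GRE1 and 0.144 for SIP18. SPG1, needed for survival in stationary phase, differed by -2.88, and RGI2, induced in respiratory growth, by -2.53. HBT1, a protein of polarized growth, differed by -2.22 and SNG1, a membrane protein of drug resistance, by -2.32.

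In the pentose phosphate pathway besides TAL1, 0 of the 11 measured genes were called, 4 stood higher on both TAL arrays and 1 lower (36.4% and 9.09%, against 25.4% and 18.3% of all genes). SOL3, a 6-phosphogluconolactonase, was -0.36 and -0.60 on the control arrays and 0.80 and 1.25 on the TAL arrays, a difference of 1.51 ± 0.37 (adjusted p 0.139). TKL1, the main transketolase and partner of transaldolase, was 1.36 and 1.26 against 2.13 and 2.60. The NADPH-forming dehydrogenases ZWF1 and GND1 differed by 0.51 and 0.78 without overlap. These 4 genes stood higher and TKL2, the minor transketolase, lower (difference -0.87), while NQM1, the second transaldolase gene of yeast, overlapped between the strains at 1.00 and 1.78 against 0.28 and 1.21. The list's median difference was 0.07, beside 0.02 over all genes, and it changed sign under quantile normalization (-0.07).

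The xylose and polyol genes also had 0 called members of 6, with 2 higher and 2 lower (33.3% each, against 25.4% and 18.3% of all genes). SOR1 and SOR2, near-identical sorbitol dehydrogenase genes that can share probe signal, differed by 1.62 and 1.63 with SE values of 1.02. XYL2, the xylitol dehydrogenase, was -2.58 and -2.24 against -3.24 and -2.88. GRE3, the aldose reductase that also acts on xylose, overlapped between the strains (difference 0.30).

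Of 10 alcohol dehydrogenase genes, 0 were called. ADH7 stood higher and 5 stood lower on both TAL arrays (10% and 50%, against 25.4% and 18.3% of all genes). The 5 included ADH2, the ethanol-oxidizing enzyme, at 3.22 and 4.35 against 1.21 and 2.33. They also included SFA1, the bifunctional formaldehyde and alcohol dehydrogenase, at 4.64 and 5.27 against 4.15 and 4.25. Of 26 aldehyde reductases and related oxidoreductases 0 were called, and 3 stood higher and 7 lower (11.5% and 26.9%, against 25.4% and 18.3% of all genes). The median of -0.02 became 0.28 under quantile normalization, so that no direction could be given. GRE2 and ARI1, which reduce furfural, overlapped between the strains, with differences of -0.20 and 0.57. OYE2, an NADPH oxidoreductase known as old yellow enzyme, was 5.25 and 5.62 in the control strain and 4.44 and 4.59 in the TAL strain (difference -0.92 ± 0.21, adjusted p 0.116). The 8 aldehyde dehydrogenases and acetyl-CoA synthetases had a median of -1.17, with 0 called and 3 lower without overlap (37.5%, against 18.3% of all genes). ALD6, the cytosolic acetaldehyde dehydrogenase, was 5.30 and 6.11 against 4.27 and 4.61, and ALD4, the mitochondrial one, 5.47 and 6.13 against 4.41 and 4.95.

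The proteasome, the protease that degrades ubiquitin-tagged proteins, was the list with the most uniform shift towards the TAL strain. Of 36 measured genes 0 were called, 28 stood higher on both TAL arrays than on both control arrays (77.8% of the list, against 25.4% of all genes) and 0 lower, and 35 had a positive difference. The median level of the list was 1.01 and 1.13 on the control arrays and 1.59 and 2.16 on the TAL arrays. The median difference was 0.65, with 0.40 in run 1 and 0.86 in run 2, and it stayed between 0.36 and 0.91 under every alternative run. Under quantile normalization 34 stood higher without overlap, where 23% of all genes did, and 0 lower, where 18.2% did.

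PRE3, a catalytic subunit of the 20S core, was -0.19 and -0.43 on the control arrays and 0.85 and 1.49 on the TAL arrays, a difference of 1.48 ± 0.29 (adjusted p 0.0834 in limma). RPN12, of the lid of the regulatory particle, was 0.89 and 0.76 against 1.89 and 2.34. PRE9 and PRE1 of the core differed by 1.33 and 1.26, and UMP1, the assembly chaperone, by 1.12. The 14 subunits of the 20S core had 12 higher without overlap and a median of 0.69, and the 19 of the 19S regulatory particle 14 and 0.54. RPN4, the transcription factor that drives proteasome genes, was 3.68 and 4.04 against 3.88 and 3.71 and overlapped between the strains.

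The genes of oxidative phosphorylation, which build the respiratory chain and ATP synthase, shifted the other way. Of 35 nuclear genes 0 were called, 29 stood lower on both TAL arrays (82.9%, against 18.3% of all genes) and 1, CYC7, higher. The highest decile of genes by mean level over the 12 arrays held 57.1% of the list, and 47.8% of that decile stood lower. The median level was 1.70 and 1.64 on the control arrays and 1.12 and 0.97 on the TAL arrays, and the median difference of -0.68 was -0.67 in run 1 and -0.75 in run 2. COX5A, of cytochrome c oxidase, was 2.79 and 2.80 against 1.63 and 1.56, a difference of -1.20 ± 0.19 (adjusted p 0.0628). Its hypoxic counterpart COX5B overlapped, at 1.54 and 0.55 against 1.45 and 0.92. Of the 9 nuclear cytochrome c oxidase genes 8 stood lower, with a median of -1.04. All 9 measured genes of the bc1 complex stood lower (median -0.67), and 9 of 12 ATP synthase genes (median -0.66). Under quantile normalization 23 of the 35 genes stood lower and 1 higher, where 18.2% and 23% of all genes did, with a median of -0.50.

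The 16 transcripts of the mitochondrial genome had a median of -0.77, with 0 called and 12 lower without overlap (75%, against 18.3% of all genes). Under quantile normalization 7 of the 16 stood lower, where 18.2% of all genes did. COX3 was 4.93 and 5.33 against 4.26 and 4.36, and OLI1, an ATP synthase subunit, 6.81 and 7.19 against 6.02 and 6.28. All 16 differences were negative, between -1.05 and -0.32. The -1.05 was that of AI3, which was not detected on the TAL arrays, so its size is only a bound (at least 1.88-fold lower). The nuclear genes for mitochondrial ribosomal proteins went the opposite way, with a median of 0.30. Of 69, 33 stood higher without overlap and 3 lower (47.8% and 4.35%, against 25.4% and 18.3% of all genes). Under quantile normalization 23 stood higher and 4 lower, where 23% and 18.2% of all genes did, and the median was 0.18. Medians over the 16 nuclear chromosomes ran only from -0.09 to 0.08.

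**Figure D3:**
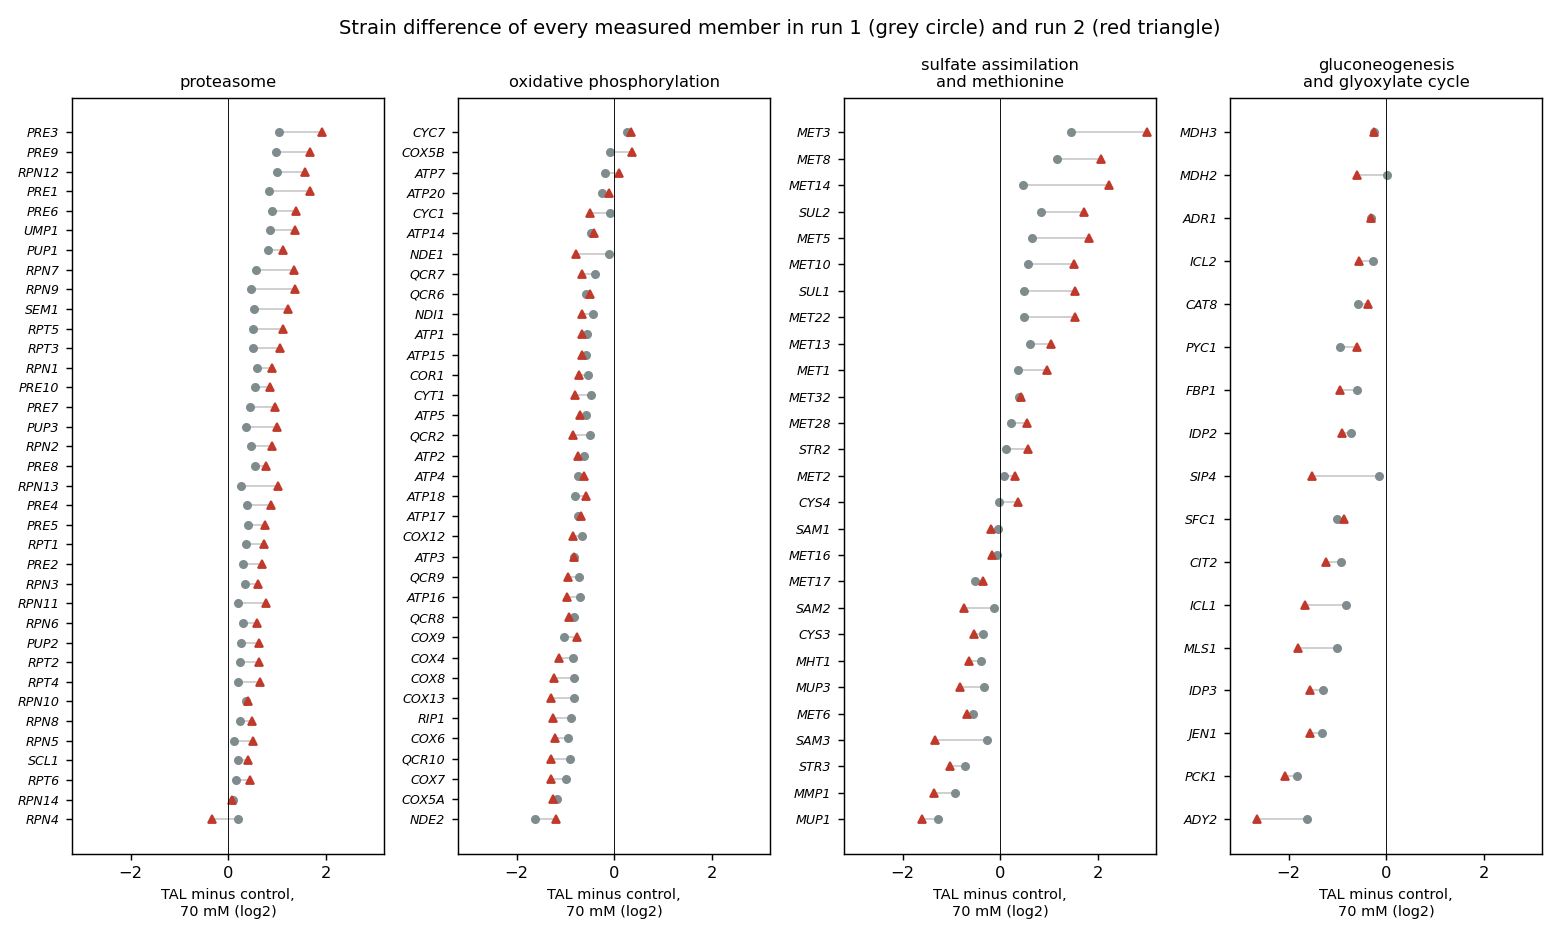
Strain difference (TAL minus control at 70 mM furfural, log2) of every measured member of 4 gene lists, with a grey circle for run 1 and a red triangle for run 2. Proteasome members lie to the right of 0 in both runs except RPN4, whereas gluconeogenesis members lie to the left with MDH2 at 0 in run 1, and the sulfate and methionine list splits.

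The lists for gluconeogenesis and for fatty acid oxidation, which serve growth on acetate, lactate or fatty acids, also had most of their members lower in the TAL strain. Of 17 gluconeogenesis and glyoxylate cycle genes 0 were called, 12 stood lower without overlap (70.6%, against 18.3% of all genes) and 0 higher. All 17 differences were negative (median -0.83). PCK1, the phosphoenolpyruvate carboxykinase that commits carbon to gluconeogenesis, was 3.64 and 4.65 on the control arrays and 1.81 and 2.57 on the TAL arrays. ADY2, an acetate transporter, was 1.57 and 2.86 against -0.05 and 0.20, and JEN1, the lactate and pyruvate transporter, 3.75 and 4.46 against 2.43 and 2.89. The glyoxylate cycle enzymes MLS1 and ICL1 differed by -1.41 and -1.25, and IDP3, a peroxisomal isocitrate dehydrogenase, by -1.43 ± 0.21 (adjusted p 0.0628). Peroxisomal fatty acid oxidation had 10 of 16 lower and 1, its activator gene OAF1, higher (62.5% and 6.25%, against 18.3% and 25.4% of all genes). FOX2 and POT1, enzymes of the beta-oxidation cycle, differed by -1.31 and -1.54. That list's median of -0.84 was -0.79 under quantile normalization, and 0 of its members were called. In the tricarboxylic acid cycle CIT3 was the only called member of 18, and the median was -0.50. There 10 stood lower without overlap and 1, IDH2, higher (55.6% and 5.56%, against 18.3% and 25.4% of all genes).

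The sulfate assimilation and methionine list was split by role. Of 27 genes 0 were called, and 12 stood higher without overlap and 10 lower (44.4% and 37.0%, against 25.4% and 18.3% of all genes). The median was 0.20. Of the 10 genes for sulfate uptake and reduction to sulfide, 9 stood higher and 0 lower, with a median of 1.14. MET3, the ATP sulfurylase that activates sulfate, was -1.13 and -1.78 on the control arrays and 0.31 and 1.23 on the TAL arrays (difference 2.22 ± 0.39, adjusted p 0.0833 in limma). MET8, which completes the siroheme cofactor of sulfite reductase, was -0.66 and -0.56 against 0.50 and 1.50, and SUL2, a sulfate permease, 0.98 and 1.01 against 1.81 and 2.73. The sulfite reductase subunit genes MET5 and MET10 differed by 1.24 and 1.04, and MET14, the next kinase, by 1.35. By contrast, all 4 permeases for methionine and its derivatives stood lower, led by MUP1 at 5.04 and 5.33 against 3.76 and 3.74 and MMP1 at 0.92 and 1.00 against 0.00 and -0.37. The differences of the sulfate genes were larger in run 2 (median 1.62) than in run 1 (0.53).

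In the phosphate regulon, which imports and stores phosphate, 0 of 17 genes were called, 10 stood lower without overlap (58.8%, against 18.3% of all genes) and 0 higher (25.4% of all genes), with a median of -0.74. PHO89, a sodium-phosphate cotransporter, was 1.44 and 1.92 on the control arrays and -0.60 and -1.59 on the TAL arrays, a difference of -2.77 ± 0.46 (adjusted p 0.0693). PHO84, the main high-affinity transporter, was 3.24 and 4.01 against 2.06 and 2.04, and VTC2, of the polyphosphate polymerase, 2.32 and 2.97 against 1.33 and 1.51. The acid phosphatase gene PHO5, another target of the same regulation, overlapped at -1.65 and -0.51 against -1.65 and -0.66. Of 9 lysine synthesis genes 7 stood lower (77.8%, against 18.3% of all genes), with a median of -0.60 and 0 called.

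Several lists of strongly expressed genes stood lower on the TAL arrays, and so did strongly expressed genes in general. With genes split into deciles of their mean level over the 12 arrays, the median difference was -0.13 in the lowest decile, 0.20 in the third and -0.47 in the highest, where 47.8% of genes stood lower without overlap and 8.54% higher. Under quantile normalization the median of the highest decile was -0.08. The arrays of the TAL strain were also the brighter ones, as given above, and the part of level and brightness in the list differences was not tested.

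**Figure D4:**
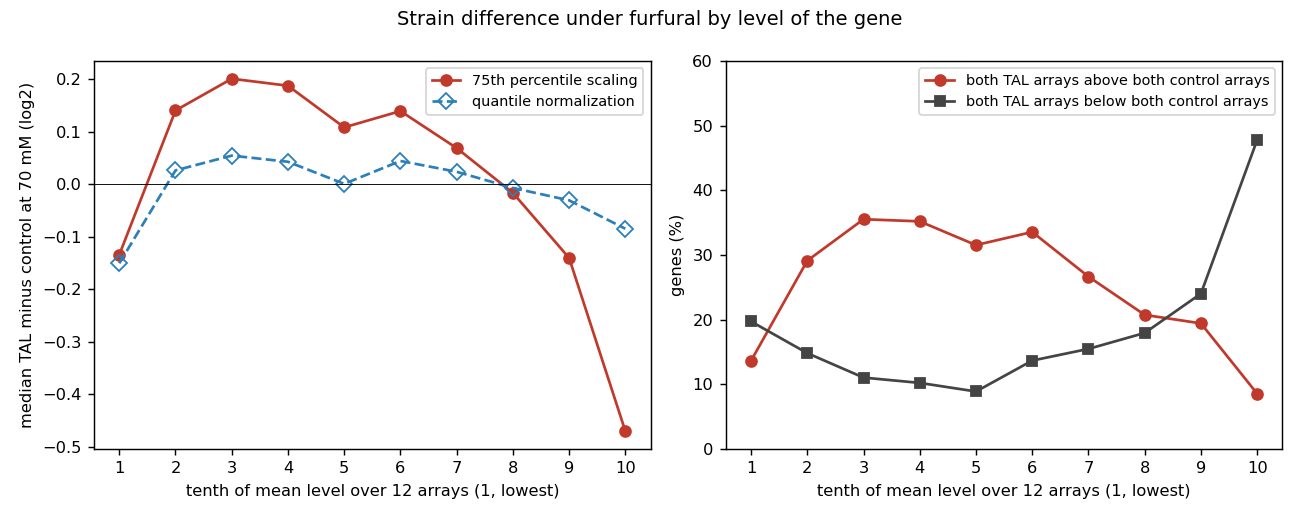
Median strain difference (TAL minus control at 70 mM, log2; left) and percentage of genes whose 2 TAL arrays lay above or below both control arrays (right), by decile of the mean level over 12 arrays. With scaling to the 75th percentile the highest decile has a median of -0.47 and 47.8% of its genes lower, and with quantile normalization a median of -0.08.

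Glycolysis and heat shock were the lists most exposed to this, with 80% and 78.6% of their members in the highest decile. That share was 66.7% for the marker genes, 57.1% for oxidative phosphorylation, 55.6% for the tricarboxylic acid cycle and 50% for the alcohol dehydrogenases. For gluconeogenesis it was 41.2%, for the proteasome 33.3% and for fatty acid oxidation 0%. Of 20 glycolysis and pyruvate decarboxylase genes 0 were called, and 17 stood lower without overlap and 1 higher (85% and 5%, against 18.3% and 25.4% of all genes). Their median of -0.80 became -0.34 under quantile normalization, where 13 of the 20 and 18.2% of all genes stood lower. FBA1, the aldolase, was 5.41 and 5.84 against 4.19 and 4.47, and CDC19, the pyruvate kinase, 4.89 and 4.97 against 3.95 and 3.77. The exception, PDC5, a minor pyruvate decarboxylase, was -2.11 and -2.25 against -1.16 and -0.61 (difference 1.30 ± 0.23, adjusted p 0.0833). Of 28 heat shock proteins and chaperones 0 were called and 23 stood lower (82.1%, against 18.3% of all genes). Quantile normalization left 6 of the 28 lower and 4 higher, where 18.2% and 23% of all genes did, so the share lower was near that of all genes. The median moved from -0.74 to -0.13. HSP30, a plasma membrane stress protein, was 6.33 and 6.64 against 5.21 and 5.37, and HSP104, the disaggregase, 4.17 and 4.23 against 3.61 and 2.88.

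The cytosolic ribosomal proteins had 0 called of 139, with 61 lower without overlap and 2 higher (43.9% and 1.44%, against 18.3% and 25.4% of all genes). The highest decile held 46.8% of the list, and 47.8% of that decile stood lower. The median of the ribosomal proteins, -0.51, was -0.20 in run 1 and -0.83 in run 2. Their extreme member was RPS12, at 2.46 and 2.53 against 1.80 and 1.02. The cell wall list (median -0.51) had 15 of 30 lower without overlap and 3 higher (50% and 10%, against 18.3% and 25.4% of all genes). These shares are close to those of the highest decile (47.8% and 8.54%), which held 53.3% of the list. The cell wall list was led by the mannoprotein gene CWP2 at 4.02 and 4.95 against 1.89 and 2.45, and 0 members were called. The quantile-normalized median was -0.45 for the ribosomal proteins and -0.19 for the cell wall.

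The lists of oxidative stress and drug resistance showed no common direction. Of 35 oxidative stress genes 0 were called, and 8 stood higher and 5 lower (22.9% and 14.3%, against 25.4% and 18.3% of all genes). Their median of -0.11 became 0.29 under quantile normalization. YAP1, the transcription factor of the oxidative stress response, was 1.90 and 2.36 against 2.50 and 3.34, while TRR1, the thioredoxin reductase it induces, had a difference of -1.12 without overlap. In the pleiotropic drug resistance list of 18 genes 0 were called, and 3 stood higher and 3 lower (16.7% each, against 25.4% and 18.3% of all genes). The efflux pump genes SNQ2 and PDR5 stood lower, by -1.26 and -1.13, with differences of the opposite sign for PDR1, their transcriptional regulator, at 0.92, and PDR11, a sterol transporter, at 0.87. Genes specific to mating type a or alpha, read as a check of the cell type, had 0 called members of 6 and 4. Both sets were dim, and the cell type was not read from them. The median level of the a-specific genes was -3.82 and -4.65 on the control arrays and -3.42 and -4.46 on the TAL arrays. Of those 6, 2 stood higher and 1 lower without overlap (33.3% and 16.7%, against 25.4% and 18.3% of all genes). The alpha-specific genes had a median level of -4.73 and -4.72 on the control arrays and -4.05 and -3.22 on the TAL arrays. Of these 4, 3 stood higher without overlap (75%, against 25.4% of all genes), and MF(ALPHA)1 was not detected on the control arrays.

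**Figure D5:**
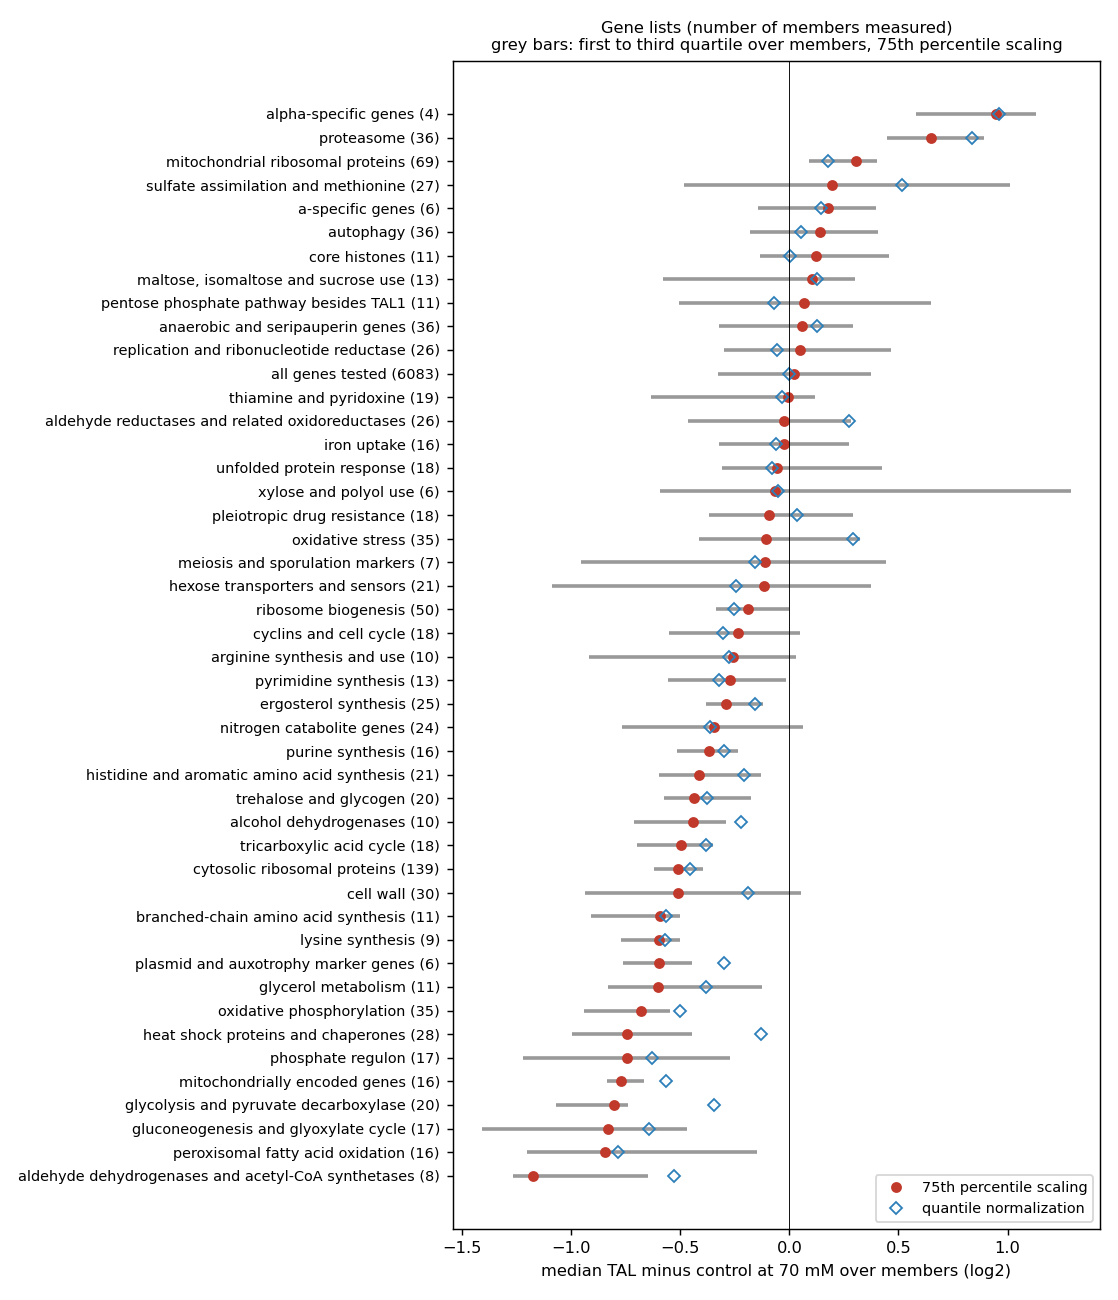
Median strain difference (TAL minus control at 70 mM, log2) over the measured members of 45 gene lists and over all genes, with scaling to the 75th percentile (red circles; grey bars from the first to the third quartile over members) and with quantile normalization (blue diamonds). The proteasome stays at 0.65 and 0.83 and oxidative phosphorylation at -0.68 and -0.50, while heat shock moves from -0.74 to -0.13.

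Over the 45 lists, 41 had no called member, and the 4 with one contained URA3, CIT3 or GPP1. The median of 24 lists kept its sign under every alternative run, 5 above 0 and 19 below, and that of 21 changed sign under at least 1. The scaling moved the median of all genes as well, from 0.02 to -0.11 with median scaling and to 0.17 with normexp background correction, so the list medians are to be read beside those values.

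The strain difference under furfural was also set against the strain difference without it. This change of the difference was called for 622 genes (10.2%), 312 in the positive and 310 in the negative direction. Without furfural the control strain lay on one slide and the TAL strain on another, and the furfural arrays lay on a slide apart from both. Slide cannot be told apart from strain at 0 mM, nor from dose, in the count of 622 and in every 0 mM difference given here. The count also rests on the arrays labelled TAL at 0 mM, which resembled control at 70 mM more closely than control at 0 mM. Of the 5 genes called under furfural, 3 were called here too. URA3 changed by -3.67 ± 0.52 (adjusted p 0.00329 in limma), from a strain difference of -0.97 without furfural to -4.64 with it, and CIT3 by -3.59 ± 0.46 (adjusted p 0.00222), from 0.90 to -2.69. YBR292C had no control array well above background without furfural, so its call here rests on background signal and no size is given. GPP1 and EFM6 differed by -2.66 and 1.69 without furfural, close to their values with it, and TAL1 by 1.14, with a change of 0.98 ± 0.47 that missed the threshold (adjusted p 0.234).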

How the data were processed

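The deposited scanner files hold, in a single colour, raw median signals and 1 processed intensity per spot. Agilent Feature Extraction 10.1.1.1 had corrected the processed intensity for background, per the file headers, with no step between arrays. A further deposited table gives the authors' log2 values. It differed from the scanner values, scaled and centred per probe, by at most 0.00908 log2, with column medians from -0.167 to 0.0547, and its scaling and centring were found from the values. The genome build of the array is not given in the sources used here.

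Unmarked spots (of 7) were averaged per probe, scaled to the 75th percentile of 6256 gene probes and taken to log2. Genes were kept where over 50% of spots exceeded background clearly on both arrays of any group, which left out 173. RefSeq names matched 5756 probes. Each gene was fitted with limma 3.58.1 (R 4.3.3) on 6 group means over 12 arrays, with 6 residual degrees of freedom and Benjamini-Hochberg adjustment over 6083 genes. The median SE was 0.309. On simulated data with 200 changed genes of 6083, 24% of changes of 1 log2 unit and 76% of changes of 2 were recovered, with 9 false calls. The simulated arrays had independent noise, whereas run 1 deviations of the 2 groups compared correlated with r = 0.757. These rates may therefore not hold for the data. Array signal has no counting depth, so precision is limited by the 2 arrays per group.

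Named were the marker genes, called genes by size and p, and of each list its called members or its largest difference. The 15 largest non-overlapping differences per direction, subgroups of lists and other list members were added after values were seen. The members and lists were chosen with earlier results of these data known. Alternatives were quantile and median scaling, normexp with offset 50 (on median signals, the only raw ones given), other filters, spot summaries, spread estimates, sample sets and run blocks, and leaving out each array. No sequence is printed and no motif was searched, since neither the files nor the references used here hold sequences.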

Additional observations from a re-analysis of the deposited data

Results flagged for a closer look

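For 20 of the named genes the strain difference at 70 mM was not that at 0 mM. That was by the test of the change itself across all genes (limma, adjusted p under 0.05). Over all genes this change was called for 622 (10.2%). Many of the named genes were picked for a large difference at 70 mM, which is part of the change tested. The 20 are therefore a description, not a share to set against all genes. The control and TAL arrays at 0 mM lie on different slides, so slide cannot be told apart from strain at 0 mM or from dose. The arrays labelled TAL at 0 mM also resembled control at 70 mM more closely than control at 0 mM. Of the called genes, URA3 changed by -3.67, CIT3 by -3.59 and YBR292C by -1.58, a value that is not exact because its control arrays at 0 mM were not well above background. Genes of stress and stationary phase changed by -6.33 (SPG1), -6.08 (GRE1) and -5.49 (SIP18), and the sporulation marker SPS100 by -6.12. At 0 mM both TAL arrays lay above both control arrays for these 4, and at 70 mM below for all but SPS100, which overlapped.

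Genes of respiratory growth and acetate use changed by -5.00 (RGI2), -4.06 (ADY2), -3.31 (PCK1) and -2.58 (ATO3). Genes of detoxification and drug resistance changed by -6.57 (YCR102C), -4.80 (SNQ2), -4.23 (SNG1) and -1.92 (ADH7). PHO89 changed by -4.73, the glycogen gene PIG2 by -3.80 and HBT1 by -3.69. The change was positive for RPS12, at 2.03, and for IPL1, at 2.00.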

How the results depend on the processing

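Of 16 alternatives, URA3 stayed called in 14, CIT3 in 11, EFM6 in 10, YBR292C in 9, GPP1 in 8 and TAL1 in 3. Beside the 5 calls, quantile normalization gave 12 (8 higher, 4 lower), normexp 2 (0 higher, 2 lower), eBayes with trend and robust options 3, the fit without TAL at 0 mM and TAL-ADH at 70 mM 1, the 4 arrays alone 0 (543 at an unadjusted p under 0.05, and URA3 at -4.64 with adjusted p 0.152) and an adjusted p under 0.1, added later, 71. Leaving out 1 array gave 0 to 44 calls (44 without run 1 and 0, with 569 at an unadjusted p under 0.05, without run 2 of the control strain, 1 without either TAL run), URA3 ran from -4.95 to -4.33 (adjusted p 0.0550 without run 2 of the control strain), and the change of the difference gave 310 to 792 calls. ADH1 reversed to 0.036 and TAL1 was 2.36 under quantile normalization. With 1 array left out LEU2 ran from -0.97 to 0.045 (also reversed at 0.012), ARG4 from -2.47 to 0.22 and HIS1 from -2.21 to 0.18. CLB6 reversed to 0.37 and AGA2 to 0.40 under normexp. The cause was not tested.

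The runs share only a number. Deviations of run 1 correlated between control and TAL at 70 mM with r = 0.757, and between 0.0435 and 0.861 over all pairs of groups. With run as a replicate block there were 357 calls in 12 arrays, 793 in the 4 arrays and 1351 for the change of the difference. TAL1 (2.11) was then called in both fits, XKS1 (-0.91) likewise, and ADH1 (-0.84) in the 4 arrays.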

Other observations

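Of the genes tested, 28 were not detected in 1 of the strains under furfural, so that their size is at best a bound. For several of them, such as GAL10 and ARP10, no bound could be set, and neither size nor direction is given. LOH1 was at least 3.77-fold higher in the TAL strain (adjusted p 0.139 in limma) and YAL065C at least 2.05-fold (adjusted p 0.0834), with the control arrays not well above background, while YNR064C was at least 2.04-fold lower (adjusted p 0.139). Each bound sets the mean of the detected group against the lowest signal well above background on the arrays of the other.

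In the unfolded protein response list of 18 genes, 0 were called, 6 stood higher and 4 lower without overlap (33.3% and 22.2%, against 25.4% and 18.3% of all genes). KAR2, the chaperone of the endoplasmic reticulum, was 3.95 and 4.03 on the control arrays and 2.98 and 2.57 on the TAL arrays. Its cochaperone gene SCJ1 was -0.35 and -1.04 against 0.51 and 0.88, and DER1, of protein export for degradation, -2.78 and -3.25 against -1.95 and -1.91. The adjusted p was 0.0834 for KAR2 and DER1 and 0.0915 for SCJ1.

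Of 21 hexose transporter and sensor genes, 0 were called. Without overlap 4 stood lower and 2 higher (19.05% and 9.52%, against 18.3% and 25.4% of all genes). The list's median of -0.12 ran from -0.39 to 0.42 over the alternatives. It changed sign under 3 of them, so that no direction could be given. HXT7, a high-affinity transporter with the near-identical neighbour HXT6 that can share its probe signal, was 6.31 and 6.83 against 5.15 and 5.35. HXT1, the low-affinity transporter, overlapped at 0.17 and -1.23 against 1.13 and -1.33.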
